A study of Mus musculus with 2 samples.

Results

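Mir216a, Mir216b, Mir217 and Mir375 are 4 microRNA (miRNA) genes best known from the pancreas, and they were followed here in the newborn mouse hindbrain. They were chosen by name, as the 3 genes of a cluster on chromosome 11 and 1 gene on chromosome 1, among 1973 miRNA genes in the count tables. The series held 1 group of 2 microRNA-seq libraries of RNA under 30 nucleotides. Each came from the hindbrain of 1 pup of strain B6NCrl at postnatal day 0, pup 1 as replicate 1 and pup 3 as replicate 2. The labels name the pups as separate animals, give them the same donor identifier and record neither sex nor any treatment. With no second condition, the questions open were how abundant these genes are and how closely the pups match. Own-strand miRNA gene counts summed to 4906127 in pup 1 and 6238680 in pup 3, and levels are CPM, counts per 1000000 of these.

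A miRNA is cut from a hairpin precursor as a duplex of a 5p and a 3p arm, and the arm loaded into Argonaute pairs with target messenger RNAs mainly through its seed, bases 2 to 8. The miR-216 and miR-217 miRNAs are abundant in the enzyme-secreting acinar cells of the pancreas. miR-375 is a leading miRNA of the hormone-secreting islet cells, where it restrains insulin secretion, and it is also made by pituitary and other neuroendocrine cells. Both groups have also been described in neural and sensory tissue. The libraries measured whole tissue, so a level does not separate the number of cells that make a miRNA from the amount per cell.

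The precursors of the cluster genes are shown first because they fix what a read of each gene can be. The sequences are those of RefSeq for GRCm38.p6, written 5′ to 3′, with both mature arms in capitals. Mir216b lies at chr11:28746191-28746276, Mir216a at chr11:28757012-28757083 and Mir217 at chr11:28763728-28763835, all on the plus strand.
Mir216b: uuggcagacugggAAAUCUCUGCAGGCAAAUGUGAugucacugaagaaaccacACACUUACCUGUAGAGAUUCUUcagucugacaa
Mir216a: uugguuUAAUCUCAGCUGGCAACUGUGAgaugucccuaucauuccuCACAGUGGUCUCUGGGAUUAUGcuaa
Mir217: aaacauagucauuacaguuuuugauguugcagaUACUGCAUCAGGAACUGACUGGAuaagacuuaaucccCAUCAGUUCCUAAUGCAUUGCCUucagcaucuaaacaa

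The mature miRNAs follow with the seed in capitals, since the seeds decide which of them could act on common targets. Mir375, at chr1:74900658-74900721 on the minus strand, gives mmu-miR-375-5p and mmu-miR-375-3p. The RefSeq sequences used had no entry for mmu-miR-375-3p, so that arm is not shown and its seed was not compared. The seed results for Mir375 therefore cover its 5p arm alone.
mmu-miR-216a-5p: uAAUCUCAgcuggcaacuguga
mmu-miR-216b-5p: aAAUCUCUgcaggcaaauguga
mmu-miR-217-5p: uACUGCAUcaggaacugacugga
mmu-miR-216a-3p: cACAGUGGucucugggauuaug
mmu-miR-216b-3p: aCACUUACcuguagagauucuu
mmu-miR-217-3p: cAUCAGUUccuaaugcauugccu
mmu-miR-375-5p: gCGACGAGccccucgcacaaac

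The miR-216a and miR-216b 5p arms were close copies, and the other arms shown had different seeds. Counted from 1 at the 5′ end, with the miR-216a base first, the 5p arms differed by U1A, A8U, U11A and C17A and were identical at 18 of 22 positions. One of these, A8U, lies in the seed, so 6 of the 7 seed bases matched. None of the 7 arms shown had its full seed in a mature miRNA of another gene, among 1738 mature miRNAs in the RefSeq table. When only bases 2 to 7 were compared, the miR-216a and miR-216b 5p arms matched each other and no other miRNA.

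No near-identical copy of these genes was found among mouse miRNA genes. None of the 4 precursors shared a stretch of 20 bases with another of 2202 mouse precursors in GENCODE M21, and none of the 7 arms occurred in another precursor. The tables leave out any read that matches more than 1 place in the genome, so copies would lower a gene's count. Matches elsewhere in the genome were not searched. The counts do not separate the 5p from the 3p arm of a gene.

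The chromosome 11 genes are spread over 17645 bases, with 10735 bases between Mir216b and Mir216a and 6644 between Mir216a and Mir217. In GENCODE M21, Mir216a and Mir217 lie in an intron of the long noncoding gene Gm12082 (28751633 to 28815767, plus strand), and Mir216b lies in no annotated host on its strand. RefSeq places Mir216b within the long noncoding gene Mir217hg (28730633 to 28751781), whose end overlaps the start of Gm12082 by 149 bases. A further gene, Mir216c, is annotated on the minus strand over Mir216b and has no entry of its own in the tables. Reads on the strand opposite Mir216b numbered 1 in pup 1 and 0 in pup 3. The strand opposite Mir216a, Mir217 and Mir375 had 0 reads in both pups, where 3 counts is the limit that a count of 0 allows.

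Mir375 lies between genes on the minus strand, 1349 bases from Cfap65 and 7514 bases from Cryba2, and inside neither. Beyond Cryba2, at 15238 bases, is Fev, which encodes the transcription factor of serotonin neurons of the hindbrain raphe. Messenger RNAs were not measured here. The tables count version 2 of the Mir375 gene model, and the position given is that of version 3 in GENCODE M21. The other genes have the same version in both.

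Base composition set Mir375 and Mir217 apart from each other. G and C made up 67.2% of the Mir375 precursor and 38.0% of the Mir217 precursor, against a median of 50.6% over the 407 genes that reached 2 CPM in both pups. Of those 407 genes, 18 had a higher value than Mir375 and 377 a higher value than Mir217. Mir216a and Mir216b had 44.4% and 44.2%. The predicted folding energy per base (RNAfold) was -0.331 kcal/mol for Mir217, weaker than in 378 of the 407 genes. It was -0.417 for Mir216a, -0.427 for Mir216b and -0.419 for Mir375, near the median of -0.433. Library preparation does not capture all small RNA sequences equally well, and the part of capture in the order of different miRNAs by count was not tested.

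All 4 genes were detected (at least 2 CPM) in both hindbrains, beside 20.6% of the 1973 genes counted, and Mir217 was the most abundant. The mature arms shown have 22 or 23 bases, and each read was taken to stand for 1 mature miRNA, so no scaling by gene length was applied. The counts do not give read lengths. Mir217 had 5564 counts or 1134 CPM in pup 1 (exact Clopper-Pearson 95% interval 1104.5 to 1164) and 5795 counts or 929 CPM in pup 3 (905 to 953). Its mean was 1031 ± 145 CPM (SD, n = 2). The pup 1 library was the higher for Mir217, and the counting intervals of the pups did not overlap.

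Mir375 came next, with 2283 counts or 465 CPM in pup 1 (446 to 485) and 2861 counts or 459 CPM in pup 3 (442 to 476), a mean of 462 ± 4.77 CPM (SD, n = 2). Its intervals overlapped from 446 to 476 CPM on library totals, the scaling of these levels. Mir216b had 1488 counts or 303 CPM in pup 1 (288 to 319) and 2321 counts or 372 CPM in pup 3 (357 to 387), a mean of 338 ± 48.6 CPM. Mir216a was the lowest, with 795 counts or 162 CPM in pup 1 (151 to 174) and 1109 counts or 178 CPM in pup 3 (167 to 189), a mean of 169.9 ± 11.1 CPM. For Mir216b the pup 3 library was the higher with no overlap of the intervals, and for Mir216a they overlapped. The intervals cover counting error only and take each read as a separate molecule. The order Mir217, Mir375, Mir216b, Mir216a was the same in both pups, and no neighbours in it overlapped between the pups.

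**Figure D1:**
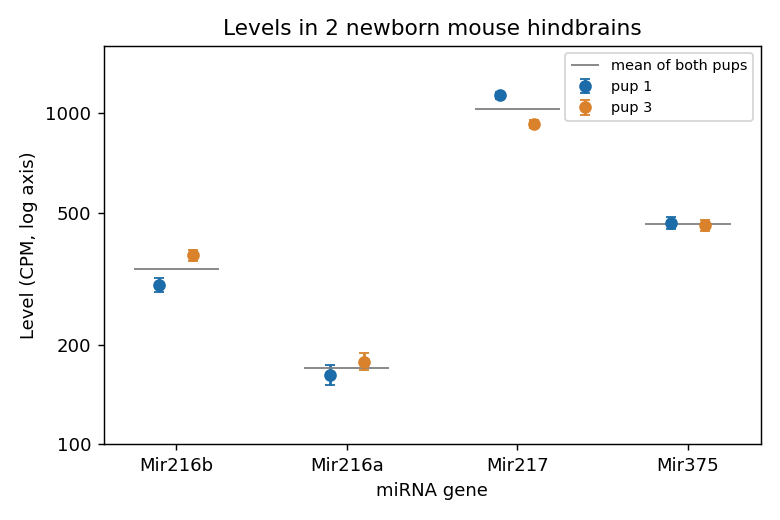
Level of each gene (CPM on a log axis) in pup 1 and pup 3, with exact 95% counting intervals as bars and a grey line at the mean of both pups. Mir217 lies near 1031 CPM, Mir375 holds almost the same level in both pups on library totals, and Mir216b and Mir217 differ between the pups in opposite directions.

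Against the whole profile these were genes of middle to upper abundance. Mir217 ranked 104 of 1973 genes by mean CPM, Mir375 ranked 142, Mir216b 170 and Mir216a 205. The ranks are of gene counts, in which genes with near-identical copies can lose reads. The median of the 407 detected genes was 178 CPM, so Mir217 stood 5.79-fold and Mir375 2.59-fold above it, Mir216b 1.90-fold above it, and Mir216a close to it at 0.954-fold. Together the 4 genes took 0.206% of own-strand counts in pup 1 and 0.194% in pup 3. The cluster alone took 0.160% and 0.148%, or 1599 and 1479 CPM.

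The genes nearest in level give a scale for these values. Mir217 lay between Mir27b (1078 ± 52.1 CPM) and Mir350 (1056 ± 89.8 CPM) above it and Mir496a (1027 ± 40.7 CPM) and Mir320 (961 ± 209 CPM) below it. Mir375 lay under Mir210, the miRNA induced by low oxygen, at 475 ± 40.6 CPM and Mir30b at 472 ± 56.2 CPM. Below it came Mir9-3, a copy of the neural miR-9 gene, at 461.9 ± 108 CPM and Mir16-2 at 455 ± 302 CPM. Each of these 8 neighbours was within 1 SD of the gene it was set beside, taking the larger SD of each pair. Reads that match several places in the genome are left out, so a gene with near-identical copies can count below its miRNA. Mir9-3 and Mir16-2 are named as gene copies, so their levels do not give a scale for the whole of their miRNAs.

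Mir216b stood beside Mir148b (345 ± 25.6 CPM), Mir221 (339.6 ± 100.3 CPM), Mir669o (337 ± 74.3 CPM) and Mir540 (327 ± 15.5 CPM). Mir216a stood beside Mir214 (178 ± 23.3 CPM), Mir873a (178 ± 23.0 CPM), Mir218-2 (169 ± 19.9 CPM), a motor neuron miRNA gene in Slit3, and Mir24-2 (167 ± 18.4 CPM). The order among such neighbours is not resolved by 2 pups. Mir218-2 and Mir24-2 are also named as gene copies, so their counts can likewise fall below the level of their miRNAs. With 2 libraries no gene could be picked for a like pattern.

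Within the cluster, Mir217 gave most of the counts in both pups, and its share was smaller in pup 3. Mir217 made up 70.9% of the 7847 cluster counts in pup 1 (69.9 to 71.9) and 62.8% of the 9225 in pup 3 (61.8 to 63.8), a mean of 66.9% ± 5.72 (SD, n = 2). Mir216b made up 19.0% in pup 1 (18.1 to 19.8) and 25.2% in pup 3 (24.3 to 26.1), a mean of 22.1% ± 4.38. Mir216a made up 10.1% (9.47 to 10.8) and 12.0% (11.4 to 12.7), a mean of 11.1% ± 1.34. No interval of a gene overlapped between the pups.

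Each share differed between the libraries by more than counting error (Fisher's exact test, two-sided, adjusted over the 3 genes). The adjusted p was 1.65e-28 for Mir217, 3.96e-22 for Mir216b and 9.44e-05 for Mir216a. These tests compare 2 libraries. They do not take in how much animals or preparations vary. A share within the cluster needs no scaling between libraries. Expressed as ratios of counts, Mir217 was 3.74-fold above Mir216b in pup 1 and 2.50-fold in pup 3, and 7.00-fold and 5.23-fold above Mir216a. Mir216b was 1.87-fold above Mir216a in pup 1 and 2.09-fold in pup 3. The log2 change of the ratio from pup 1 to pup 3 was 0.16 (SE 0.08, from counting error) for Mir216b over Mir216a, the pair with related seeds. It was of like size, -0.15 (SE 0.08), for Mir375 over Mir216a, which lie on different chromosomes. That of Mir375 over Mir216b was -0.32 (SE 0.06) and that of Mir217 over Mir375 was -0.27 (SE 0.05). That of Mir217 over Mir216b was -0.58 (SE 0.06) and that of Mir217 over Mir216a was -0.42 (SE 0.07).

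**Figure D2:**
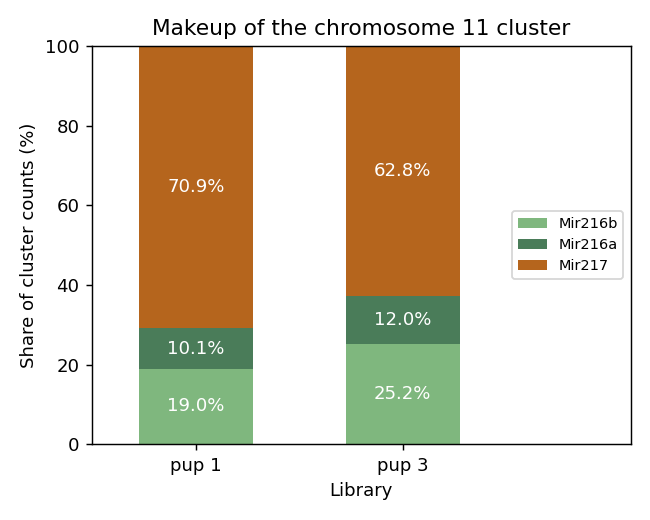
Share of each gene (percent) in the counts of the chromosome 11 cluster, 1 bar per pup. The Mir217 part shrinks from 70.9% in pup 1 to 62.8% in pup 3, and the Mir216b part grows from 19.0% to 25.2%.

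Shifts of the size seen for Mir216a with Mir217 and for Mir216b with Mir216a were common between neighbouring genes in these libraries. The comparison was chosen after the values were seen. Among genes with at least 100 counts over both pups there were 105 pairs of neighbours on the same strand at most 20 kb apart. In these, the median size of the log2 ratio change between pups was 0.36 (quartiles 0.16 and 0.64). Pairs with genes near 100 counts have a larger counting error than pairs of the cluster genes, and it was not taken out. Genes with near-identical copies were not left out of the pairs either. Mir217 and Mir216b are not neighbours, and their change of -0.58 was not set against these pairs. The Mir216a and Mir217 pair changed by 0.42, and 46 pairs changed by more. The Mir216b and Mir216a pair changed by 0.16, and 78 pairs changed by more. In the sensory cluster, Mir183 and Mir96 changed by 0.14 against each other and Mir96 and Mir182 by 1.33.

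Between the pups, all 4 genes differed by more than counting error on TMM scaling, each by less than 2-fold. Only Mir216b did so under each scaling. Of all tested genes, 47.6% differed by more than counting error at any fold on TMM scaling. With at least 100 counts, which all 4 genes had, it was 224 of 317. Differences are log2 values of pup 3 minus pup 1 on TMM scaling after adding 1 CPM, with the SE from counting error alone. They were tested with an exact binomial test, two-sided, Benjamini-Hochberg adjusted over 508 genes with 10 or more counts. Mir216b was higher in pup 3 by 0.43 (SE 0.05, exact test adjusted p = 3.79e-19), or 1.35-fold. Mir216a was higher by 0.27 (SE 0.07, exact test adjusted p = 0.000128), though not past the threshold on library totals (0.13, exact test adjusted p = 0.0813).

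The Mir375 difference was 0.12 (SE 0.04, exact test adjusted p = 0.00871), but on library totals it turned to -0.021 (exact test adjusted p = 0.714). Mir217 was lower in pup 3 at -0.15 (SE 0.03, exact test adjusted p = 1.09e-07), though not past the threshold with DESeq2 size factors (-0.059, exact test adjusted p = 0.0609). Library totals moved the median of the 407 detected genes to -0.14, from -0.0061 on TMM scaling, and DESeq2 size factors moved it to 0.08, so values on those scalings are read against these shifts. A change of scaling moves all genes alike, and Mir216b stood highest and Mir217 lowest of the 4 under each.

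Differences beyond counting error were common over the whole table. Of the 508 genes, 242 passed the adjusted p at any fold (47.6%), 121 in each direction (23.8%), and with at least 100 counts it was 224 of 317. No gene of the 4 reached the 2-fold difference that 34 genes did (6.69%). The median size of the difference over the 407 detected genes was 0.27. Differences larger in size than that of Mir216b were seen in 122 of them, than that of Mir216a in 205, Mir217 in 276 and Mir375 in 307. The coefficients of variation in CPM, on library totals, were 14.4% for Mir216b, 14.1% for Mir217, 6.54% for Mir216a and 1.03% for Mir375. On TMM scaling the SD was 71.6 CPM for Mir216b, 75.3 for Mir217, 22.7 for Mir216a and 26.6 for Mir375. On library totals, in the same order, it was 48.6, 145, 11.1 and 4.77 CPM. The spread of each gene and its order among the 4 depended on the scaling.

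**Figure D3:**
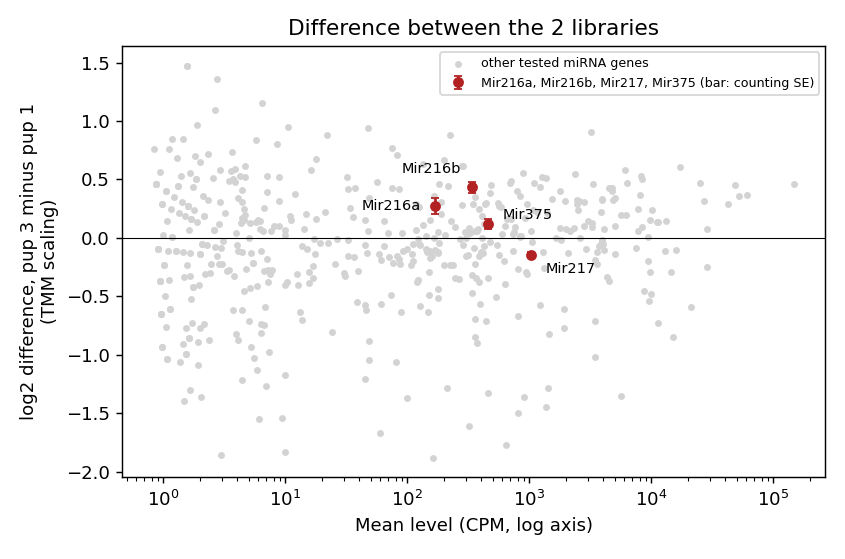
Log2 difference between the libraries (pup 3 minus pup 1, TMM scaling) against mean level (CPM, log axis) for 508 tested miRNA genes, with the 4 genes in red and their counting SE as bars. They lie within the bulk of genes of like level, from -0.15 for Mir217 to 0.43 for Mir216b.

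Other miRNAs linked to the pancreas were also present. All 6 genes of that list were detected, beside 20.6% of all 1973 genes and 38.3% of the 1051 genes with a Mir symbol. Their median level was 364 CPM. Mir7b, of the miR-7 family of islet and neuroendocrine cells, stood at 2398 CPM in pup 1 but at 1431 CPM in pup 3. The other miR-7 genes followed, Mir7-1 at 455 and 378 CPM and Mir7-2 at 342 and 281 CPM. Their near-identical copies can lose reads that match several places.

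Mir148a, abundant in acinar cells as well as liver, was at 432 CPM in pup 1, with 537 CPM in pup 3. Mir184 had 32.4 and 35.4 CPM. Mir802, a miRNA of liver and pancreas, was near the detection level at 2.85 and 2.40 CPM, from 14 and 15 counts. Of the 6 genes, Mir148a was higher in pup 3, the 3 miR-7 genes were lower, and Mir184 and Mir802 did not pass the test (exact test adjusted p = 0.146 and 0.918). Over all tested genes 23.8% passed in each direction. The median difference of the list was -0.10, against -0.018 over all tested genes.

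The 4 genes summed to 2065 CPM in pup 1 and to 1937 CPM in pup 3. In both pups this was above the counted sums of the liver and gut, erythroid, muscle and epithelial lists. The other pancreas-linked list summed to more than the 4 genes in both pups, at 3662 and 2665 CPM. These lists hold unequal numbers of genes. The muscle sum can lie below the level of its miRNAs, since Mir1a-1, Mir133a-1 and Mir133a-2 had 0 counts that set no limit. The hindbrain neural list summed to 86239 and 63524 CPM, with 8 of 11 counted genes detected. The list was chosen with earlier results of these data known, so it is no check of the labelled tissue. Multi-copy genes such as Mir9-2 and the Mir124a genes in it were near or under 10 CPM on average. The sensory cluster, Mir183, Mir96 and Mir182, summed to 3398 and 1876 CPM, above the 4 genes in pup 1 and below them in pup 3.

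Of the liver and gut list, 3 of 5 genes were detected, summing to 320 and 283 CPM, with Mir122, the liver miRNA, at 44.6 and 45.2 CPM. Of the erythroid list, all 3 were detected, at 498 and 308 CPM in sum. Of the muscle list, 4 of 7 counted genes were detected, at 246 and 206 CPM in sum, and Mir1a-1, Mir133a-1 and Mir133a-2 had 0 counts in both pups. Each of these 3 genes shares a stretch of 20 bases with another gene copy, and reads that match several places are left out, so a count of 0 sets no limit on their level.

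In the epithelial and pituitary list, the genes that differed between the pups were higher in pup 3. Over the whole table, 121 of 508 tested genes were higher in pup 3. Of the 4 genes, Mir216a, Mir216b and Mir375 were higher in pup 3 on TMM scaling, and Mir217 was lower. On library totals Mir216a missed the threshold (exact test adjusted p = 0.0813) and Mir375 turned to -0.021 (exact test adjusted p = 0.714). All 7 genes of the epithelial and pituitary list were detected, and their sum was 781 CPM in pup 1 against 974 CPM in pup 3. Its median difference was 0.42, with 3 of 7 genes higher in pup 3 (23.8% over all tested genes), none lower and 4 not past the test. The 3 were Mir203, a skin miRNA, at 612 and 773 CPM, Mir429 at 58.1 and 90.7 CPM and Mir200b at 29.6 and 36.2 CPM. The other members of the miR-200 family, to which Mir429 and Mir200b belong, did not pass. Mir200c averaged 22.4 ± 2.02 CPM (log2 difference -0.043, exact test adjusted p = 0.914), Mir200a had 6.32 and 7.05 CPM (0.26, exact test adjusted p = 0.554) and Mir141 2.85 and 4.33 CPM (0.57, exact test adjusted p = 0.204). Mir205, an epithelial miRNA outside that family, had 47.9 and 41.7 CPM and did not pass either (exact test adjusted p = 0.769). The part of other cell types in the levels or differences of the 4 genes was not tested.

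**Figure D4:**
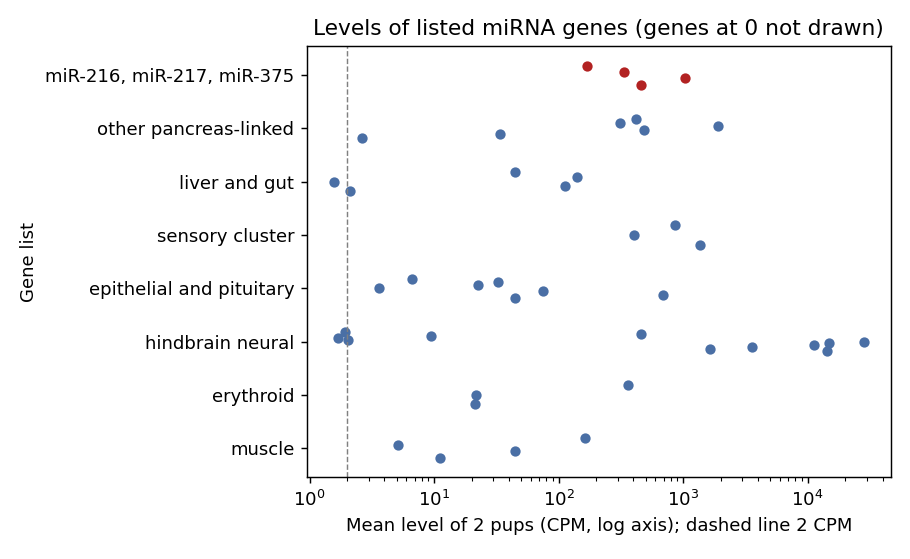
Mean level of both pups (CPM, log axis) of each counted gene of 8 lists, 1 point per gene, with the detection level of 2 CPM dashed. The 4 genes (red) lie between 169.9 and 1031 CPM, above most liver, erythroid, muscle and epithelial genes and below the leading neural genes.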

How the data were processed

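MicroRNA-seq of RNA under 30 nucleotides was done on the hindbrains of 2 newborn mice, 1 library each. For each library the authors deposited raw read counts by miRNA gene, on any, the own and the opposite strand. The deposited text files name the assembly (mm10) and the annotation (M4). The software behind the counts is not given in the sources used here. Rows that name no gene stayed out of totals and tests. They included reads at several genomic places (37.9% of reads in pup 1, 39.4% in pup 3) and unmapped reads (17.7% and 13.9%). Own-strand counts were used.

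IDs were matched without version to GENCODE M21 (GRCm38), 1894 of 1973. Sequences came from RefSeq (GRCm38.p6), which had an entry for 7 arms of the 4 genes. TMM factors are from edgeR 4.0.16, size factors from DESeq2 1.42.0, tests from scipy 1.17.1 and folding energies from RNAfold 2.7.2. The size ratio of pup 3 to pup 1 was 1.16 by TMM. The binomial test was checked on simulated counts that held counting error only, so the check does not cover spread between libraries. Detection was 2 CPM in both pups. P-values cover counting error only.

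The 4 genes, lists and rules were chosen with earlier results of these data known. Named genes were the 4, the listed genes, the 2 genes next above and below each in mean CPM, and genes sharing a full seed (none). Listed genes without an entry were Mir9-1 and Mir1a-2. Alternatives covered the strand, scaling, count filter, detection level and leaving out each pup.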

Additional observations from a re-analysis of the deposited data

How the results depend on the processing

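The detection of all 4 genes held under the alternatives run. Reads on any strand left the Mir217 share of the cluster at a mean of 66.9%. With 1 opposite-strand read at the cluster genes, this alternative could hardly move the makeup. The number of genes that differ between the libraries was 242 of 508 on TMM scaling and with DESeq2 size factors. It was 279 of 508 on library totals, 224 of 317 with at least 100 counts, 244 of 768 with no count filter and 254 of 520 with reads on any strand. Without Mir99a, the most abundant gene, in the total, the levels of Mir216a, Mir216b, Mir217 and Mir375 were 199, 396, 1206 and 541 CPM. Per 1000000 of all reads in the tables they were 71.5, 142, 432 and 194. With reads on any strand, Mir375 was at 447 CPM and ranked 151, and Mir217 ranked 111. On library totals the Mir216a difference missed the threshold (0.13, exact test adjusted p = 0.0813) and that of Mir375 turned to -0.021 (exact test adjusted p = 0.714). With DESeq2 size factors Mir217 missed the threshold (-0.059, exact test adjusted p = 0.0609). The split of calls was 146 higher and 96 lower in pup 3 with DESeq2 size factors, 87 and 192 on totals, and 121 each on TMM. At 1 CPM, 5 genes of the liver and gut list were detected. Leaving out a pup gave the values of the other pup, as printed above. No paired analysis was possible because both libraries form 1 group. The 2 pups give no measure of the spread between animals per gene, and the counts do not separate the arms. Pooled over 412 genes, the coefficient of variation between the libraries beyond counting error was 0.234 (edgeR). That value mixes animals and preparations and does not enter the p-values.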
